A study of Mus musculus with 6 samples.

Results

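The Mediator complex was followed here through the 33 mouse genes that encode its subunits: Ccnc, Cdk8, Cdk19, Med1 and the other numbered Med genes, with the paralogues Med12l and Med13l. They were taken by gene symbol from a table of 25899 genes, and each of the 33 had a row. The libraries hold nascent RNA that was labelled with ethynyl uridine for the last 15 min before lysis and then captured. There were 2 groups of 3 libraries. The cells of the 4OHT group received 250 nM 4-hydroxytamoxifen (4OHT) for 2 h, and those of the untreated group received none. Both groups were E14tg2a mouse embryonic stem cells of 129SV background in which a cRAF-ErT2 cassette was stably expressed, represented by the same clones a, b and c. ErT2 is a tamoxifen-binding domain, used to make the activity of a fused protein depend on 4OHT, and cRAF is the kinase upstream of MEK and ERK. Both groups were in serum medium with LIF, and for the preceding 24 h with 250 nM PD173074, an inhibitor of FGF receptors. The earlier medium held 2 µM CHIR99021, an inhibitor of GSK3. The promoter of the cassette is not given in the labels, and 4OHT-treated cells without the cassette were not analysed here, so an effect of 4OHT itself cannot be told apart from one of the kinase.

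Mediator is the large complex that carries signals from DNA-bound activators to RNA polymerase II. Its head and middle modules touch the polymerase, Med14 runs through the complex as a scaffold, and the tail is where most activators dock. A separable kinase module of Cdk8 or Cdk19, cyclin C, Med12 or Med12l, and Med13 or Med13l binds the core reversibly and interferes with polymerase binding. In cells signalling through ERK, the kinase and its targets meet Mediator directly: phosphorylated ELK1 docks on Med23, and in human cells ERK phosphorylates MED1. In mouse embryonic stem cells Mediator occupies enhancers and promoters of pluripotency genes together with cohesin and its loader Nipbl.

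The libraries held 7295334 to 9431819 counts after 4OHT and 9745747 to 12168380 counts untreated. Levels are given as CPM, counts scaled to one library total, after TMM scaling, which sets the bulk of genes to no net change, so a change in total transcription cannot be seen. Libraries of clone c stood apart from those of the other clones. Of the markers of other cells, 5 genes of primitive endoderm summed to 338 to 397 CPM after 4OHT and 61.9 to 80.0 CPM untreated. That difference lay mostly in Sparc (327 to 389 CPM after 4OHT and 54.4 to 70.0 CPM untreated). Gata4 was also higher after 4OHT in every clone (4.70 to 7.01 CPM, against 3.20 to 4.70 CPM untreated), and Gata6 was lower in every clone. Pdgfra was higher in clones a and b and lower in clone c, and Sox17 was near 0 in both groups. A list of 7 feeder fibroblast genes summed to 20.6 to 24.8 CPM after 4OHT and 2.88 to 3.72 CPM untreated, and none of the 7 was at 0 throughout. There the difference lay in Twist1 (15.7 to 19.4 CPM after 4OHT and 0.152 to 0.783 CPM untreated) and Col1a1, while Pdgfrb was lower after 4OHT in every clone and Col3a1 and Dcn were at 0 after 4OHT. For 9 embryonic stem cell genes the sums were 2048 to 2427 CPM after 4OHT and 2575 to 2661 CPM untreated, but the genes moved in different directions. Nanog (79.7 to 117 CPM after 4OHT and 298 to 334 CPM untreated), Esrrb, Klf4 and Sall4 were lower in every clone. Zfp42 (927 to 1088 CPM after 4OHT and 607 to 703 CPM untreated), Pou5f1 and Dppa4 were higher in every clone, and Sox2 and Utf1 differed between clones in direction. The part of these shifts in the Mediator values was not tested. Because the samples are bulk, fewer cells of a type and less RNA per cell cannot be told apart.

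Most of the Mediator response lay in a few genes. Med24 of the tail rose about 4-fold, Ccnc (cyclin C) about 2-fold, and Med22, Med13, Med14, Med27 and Med15 by smaller factors, while Med9 of the middle module was the only member that fell in the fit without a clone term. Of the 33 members, 32 could be tested, and 14 were higher, 1 was lower and 17 did not pass an adjusted p of 0.05 in edgeR's quasi-likelihood test. Among all 13869 genes tested, 57.1% were called in either direction in the same fit, 28.5% higher and 28.6% lower. With the clone as a block, edgeR called 16 members higher and 5 lower, the added ones lower being Med12l, Med17, Med21 and Med26, against 34.1% higher and 33.3% lower of all genes. DESeq2 with the same block called 14 members higher and 1 lower, Med9. Its shares of all genes were under the 28.5% higher and 28.6% lower of edgeR without a block. With a minimum change of 0.5 on the log2 scale, 7 members were higher and 0 lower in edgeR, against 15.8% higher and 21.2% lower of all genes. No member fell that far at an unadjusted p below 0.05 either, and DESeq2 and limma-voom each called 1 member lower without the minimum. The median log2 fold change of the 32 members was 0.19, with a range of -0.44 to 2.04, and that of all tested genes was -0.00. In 16 members every 4OHT library lay above every untreated library, in 2 every 4OHT library lay below, and in 14 the groups overlapped. Of all genes tested, 31.4% had all 4OHT libraries above and 31.9% all below.

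**Figure D1:**
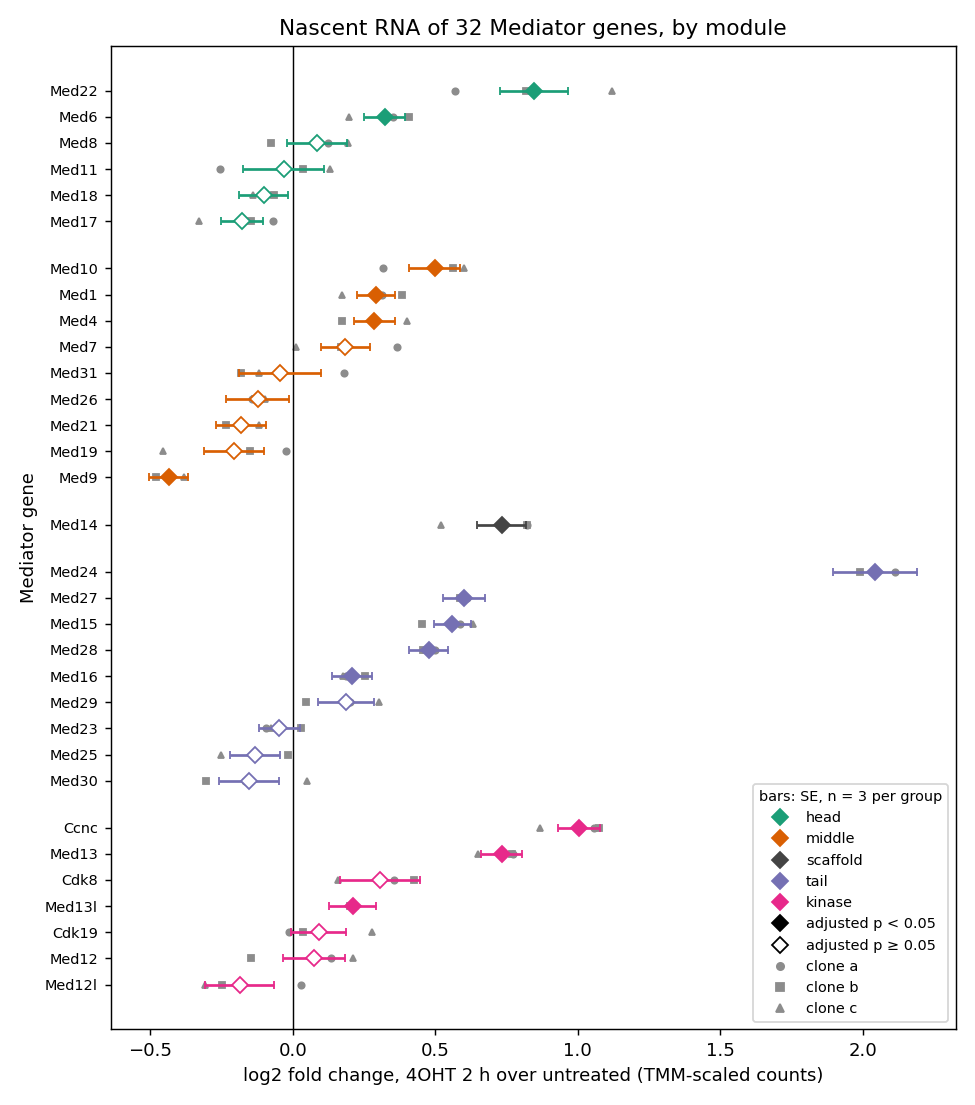
Log2 fold change (4OHT 2 h over untreated) of the 32 tested Mediator genes by module. Diamonds with bars are the fitted value and its SE, filled where the adjusted p is below 0.05, and the grey marks are the ratios within clones a, b and c. Med24 stands alone at 2.04, and the remaining members lie between -0.44 and 1.00.

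The modules did not move as units. In the head, 2 of 6 tested members were higher and 0 lower in edgeR, with 1 lower at an unadjusted p below 0.05 (median log2 fold change 0.03), and in the middle 3 of 9 were higher and 1 lower (median -0.04). Of the 9 tail members, 5 were higher and 0 lower in edgeR (median 0.21). The kinase module had 3 higher and 0 lower of 7 in edgeR (median 0.21). In the tail and the kinase module 0 were lower at an unadjusted p below 0.05 as well, and DESeq2 and limma-voom called 0 lower in the head, the tail and the kinase module. The scaffold subunit Med14 rose by 0.73. With 5 subunits assigned to the head instead, the median was 0.086 in the head and 0.071 in the middle. The medians of the tail and the kinase module stayed at 0.21, so the head and middle values depend on the assignment. The shares higher were 33.3% in the head and in the middle, 55.6% in the tail and 42.9% in the kinase module. Of all genes tested, 28.5% were higher and 28.6% lower in the same fit. The head and the middle thus lay near the share higher of all genes. No test between modules was made.

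The start regions of 5 of the 6 members called alike in each of the 19 alternative fits are printed here (Med24, the sixth, has no entry), with that of Med15, which carries matches to a motif discussed further on. Each is 300 bases from RefSeq (GRCm38.p6), from 250 before the start of transcription to 50 after it, written in the direction of the gene. They lie at chr4:21727451-21727750 on the plus strand for Ccnc, chr11:86357547-86357846 on the minus strand for Med13 and chrX:12761924-12762223 on the minus strand for Med14. The others are at chr2:26910593-26910892 on the minus strand for Med22, chr16:17722851-17723150 on the minus strand for Med15 and chr11:59947964-59948263 on the plus strand for Med9. Capitals mark motif matches on either strand: CTTCCGG is the ETS motif CCGGAAG read on the other strand, and CGCCCACGC is the EGR motif GCGTGGGCG read on the other strand.
Ccnc: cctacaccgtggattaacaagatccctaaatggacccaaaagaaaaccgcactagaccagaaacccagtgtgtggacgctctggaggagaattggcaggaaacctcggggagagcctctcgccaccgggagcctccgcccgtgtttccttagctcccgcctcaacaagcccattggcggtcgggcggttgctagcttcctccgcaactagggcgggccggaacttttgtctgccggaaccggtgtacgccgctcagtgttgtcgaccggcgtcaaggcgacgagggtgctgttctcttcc
Med13: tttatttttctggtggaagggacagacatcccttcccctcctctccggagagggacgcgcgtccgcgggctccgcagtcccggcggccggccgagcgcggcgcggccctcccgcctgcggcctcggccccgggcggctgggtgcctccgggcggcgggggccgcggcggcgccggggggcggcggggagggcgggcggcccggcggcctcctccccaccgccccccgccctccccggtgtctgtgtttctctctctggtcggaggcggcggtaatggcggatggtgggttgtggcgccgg
Med14: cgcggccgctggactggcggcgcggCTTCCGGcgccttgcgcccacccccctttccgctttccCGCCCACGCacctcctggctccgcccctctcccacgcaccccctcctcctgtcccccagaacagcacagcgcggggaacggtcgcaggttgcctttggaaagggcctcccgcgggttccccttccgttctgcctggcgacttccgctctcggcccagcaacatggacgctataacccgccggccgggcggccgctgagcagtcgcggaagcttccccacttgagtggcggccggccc
Med22: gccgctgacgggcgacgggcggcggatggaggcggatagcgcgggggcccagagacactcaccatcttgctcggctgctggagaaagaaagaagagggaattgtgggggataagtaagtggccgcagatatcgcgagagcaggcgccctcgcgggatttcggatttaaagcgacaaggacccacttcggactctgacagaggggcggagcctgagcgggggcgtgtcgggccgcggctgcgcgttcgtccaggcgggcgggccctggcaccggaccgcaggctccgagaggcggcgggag
Med15: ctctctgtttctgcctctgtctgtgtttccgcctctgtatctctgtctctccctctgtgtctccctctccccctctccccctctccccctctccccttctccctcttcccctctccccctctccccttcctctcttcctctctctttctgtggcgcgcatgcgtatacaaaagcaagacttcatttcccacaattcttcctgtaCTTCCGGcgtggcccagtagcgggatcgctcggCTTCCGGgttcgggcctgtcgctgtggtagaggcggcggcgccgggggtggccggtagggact
Med9: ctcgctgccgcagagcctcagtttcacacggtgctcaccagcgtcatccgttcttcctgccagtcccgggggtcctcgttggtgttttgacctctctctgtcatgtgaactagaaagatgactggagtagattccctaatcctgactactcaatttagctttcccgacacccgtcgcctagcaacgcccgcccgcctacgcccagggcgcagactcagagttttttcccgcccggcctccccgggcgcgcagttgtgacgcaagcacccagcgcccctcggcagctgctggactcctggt

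Med24, a tail subunit first isolated with the thyroid hormone receptor, showed the largest change of the complex. In clones a, b and c its level was 547, 654 and 756 CPM after 4OHT, against 126, 164 and 184 CPM untreated. The groups were far apart, and the order of the clones was the same in both. The means were 652 ± 104 CPM after 4OHT and 158 ± 29.4 CPM untreated (SD, n = 3 clones each). The log2 fold change was 2.04 ± 0.15 (SE), or 4.12-fold, with an edgeR adjusted p of 1.94e-06, and it ranked 276 among the rises of all tested genes. Within clones the log2 ratios were 2.11, 1.99 and 2.04, so the clones differed in level but responded by nearly equal factors. The gene spans chr11:98704591-98729435 on the minus strand of mm10 and holds the small nucleolar RNA gene Gm22059 in its span, which has no row of its own in the table.

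**Figure D2:**
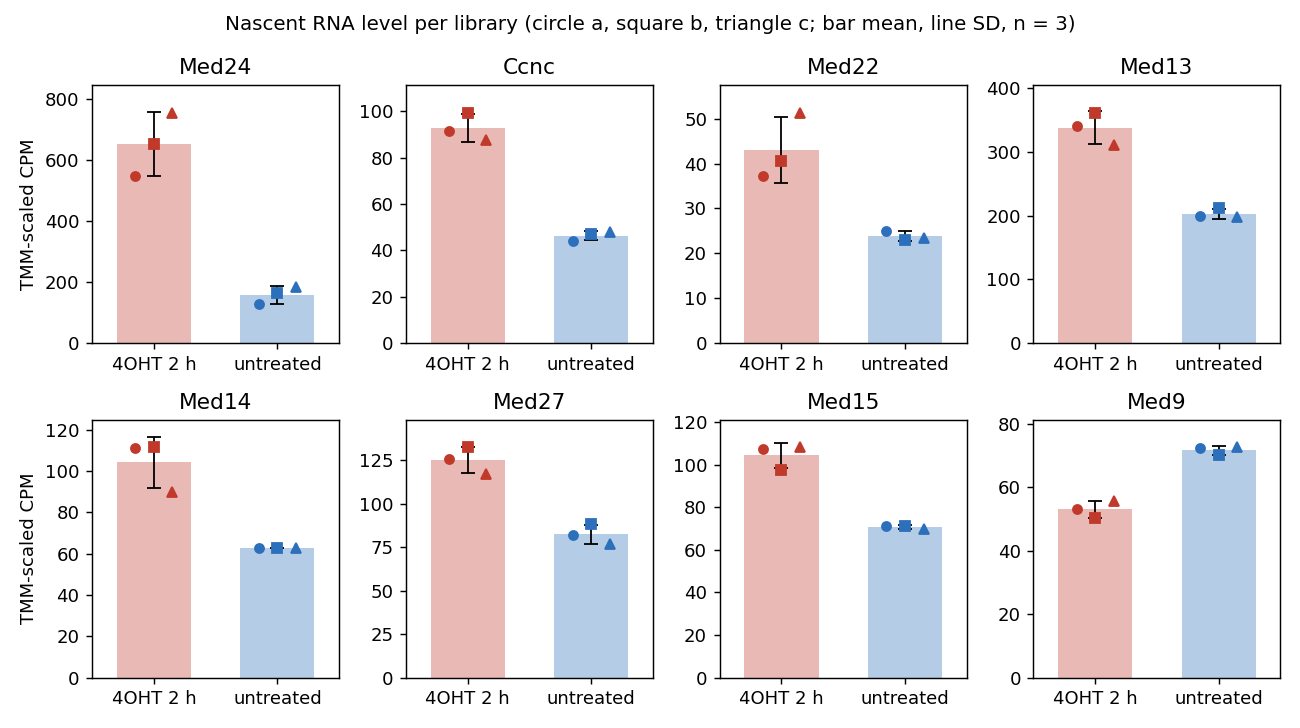
TMM-scaled CPM of the 7 members that rose by at least 0.5 on the log2 scale and of Med9, the only member that fell without a clone term, in the 3 libraries after 4OHT for 2 h and the 3 untreated libraries. Bars are means, lines SD and marks the clones, and in every panel the groups do not overlap.

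The genes around Med24 moved in different directions. Thra, which encodes a thyroid hormone receptor and starts 11.2 kb away on the opposite strand, fell. It averaged 8.92 ± 1.40 CPM after 4OHT and 22.6 ± 3.13 CPM untreated (SD, n = 3 each), a log2 fold change of -1.33 ± 0.15 with an edgeR adjusted p of 3.99e-05. On the other side, Psmd3, a proteasome subunit gene, averaged 88.3 ± 8.13 CPM after 4OHT and 77.8 ± 7.43 CPM untreated, and its log2 fold change of 0.18 ± 0.09 did not pass (edgeR adjusted p = 0.111). Within 150 kb of Med24, Nr1d1 (-0.75) and Rapgefl1 (-0.80) also fell, Ormdl3 (0.89), Wipf2 (0.64) and Casc3 (0.40) rose, and Msl1 (-0.05) did not pass. Csf3, the nearest gene downstream of Med24, had only 19 counts in the 6 libraries together and was not tested.

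**Figure D3:**
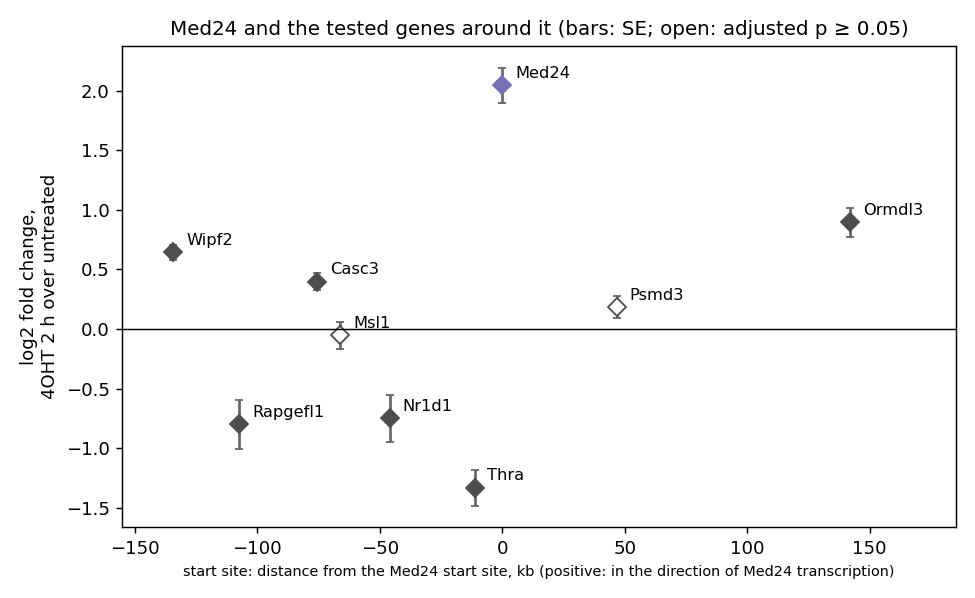
Log2 fold change (4OHT 2 h over untreated, bars SE) of Med24 and the tested genes within 150 kb, against the distance in kb of their start sites from that of Med24. Open marks did not pass. Med24 at 2.04 lies beside Thra at -1.33, whose start site is 11.2 kb away.

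In the kinase module, the cyclin gene and Med13 rose, Med13l rose by little, and both kinases and the Med12 pair did not pass. Ccnc, cyclin C, the partner that activates Cdk8 and Cdk19, held 91.7, 99.5 and 87.4 CPM in clones a, b and c after 4OHT, against 43.9, 47.2 and 47.9 CPM untreated. All 4OHT libraries were higher, with means of 92.9 ± 6.11 CPM after 4OHT and 46.3 ± 2.09 CPM untreated (SD, n = 3 each). The log2 fold change was 1.00 ± 0.07 with an edgeR adjusted p of 2.3e-06. Ccnc overlaps Tstd3 on the opposite strand over 7.89% of its span, and how reads in such overlaps were counted is not given in the sources used here. Tstd3 had 212 counts in all libraries together.

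Med13, which ties the kinase module to the core complex, held 341, 362 and 310 CPM in clones a, b and c after 4OHT, against 199, 212 and 198 CPM untreated. Its means were 338 ± 25.9 CPM after 4OHT and 203 ± 7.87 CPM untreated, a log2 fold change of 0.73 ± 0.07 (edgeR adjusted p = 1.5e-05). Brip1os, on the opposite strand and without a row of its own, covers 41.3% of the Med13 span and 7.38% of its exonic length. Whether reads of Brip1os add to the Med13 count was not tested. The paralogue Med13l held 405, 399 and 351 CPM after 4OHT, against 350, 347 and 302 CPM untreated. The lowest 4OHT library of Med13l, clone c, lay barely above the untreated clones a and b, and the log2 fold change of 0.21 ± 0.08 passed narrowly (edgeR adjusted p = 0.0483). Within clones a, b and c the log2 ratios of Med13l were 0.21, 0.20 and 0.22, and with the clone as a block the adjusted p was 0.000137 in edgeR. Without the block the call was lost when single libraries were left out, with 0.18 and an adjusted p of 0.152 without the 4OHT library of clone a, and 0.13 and 0.142 without the untreated library of clone c. Med13l also overlaps 6 other genes of the table, all at 0 counts.

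Med12, which activates the cyclin C kinase and is mutated in human uterine leiomyomas, held 29.9, 24.1 and 31.7 CPM in clones a, b and c after 4OHT, against 27.2, 26.7 and 27.3 CPM untreated. The untreated values lay inside the range of the 4OHT values, and the log2 fold change was 0.07 ± 0.11 (edgeR adjusted p = 0.58). Med12l held 47.7, 46.2 and 53.4 CPM after 4OHT, against 46.7, 54.9 and 66.2 CPM untreated. Clones b and c were lower after 4OHT and clone a was not, with a log2 fold change of -0.19 ± 0.12 (edgeR adjusted p = 0.211, and 0.0331 with the clone as a block, but 0.196 in DESeq2 with that block). Med12l shares 36.6% of its span with 7 other genes of the table. Of these only Igsf10 had counts, 299 in all, and it covers 0.62% of the span and 15.3% of the exonic length of Med12l. Cdk19 held 212, 213 and 198 CPM after 4OHT, against 213, 207 and 164 CPM untreated, with clones a and b at nearly the same level in both groups. Its log2 fold change was 0.09 ± 0.10 (edgeR adjusted p = 0.437).

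Cdk8, the cyclin C-dependent kinase of the module, had values of another order. It was the gene with the most counts in the whole table, with 47254, 48213 and 51161 CPM in clones a, b and c after 4OHT, against 36919, 35874 and 45842 CPM untreated. These were 4.39%, 4.49% and 4.81% of all counts after 4OHT, against 3.99%, 3.89% and 4.81% untreated. Per kb of gene span Cdk8 stood at 682 CPM after 4OHT and 552 CPM untreated. The other tested members lay between 0.157 and 26.3 CPM per kb after 4OHT and between 0.179 and 9.66 CPM per kb untreated. The untreated Cdk8 level was 57.2 times that of the next member, Med7, so its value stands with that reserve. Every 4OHT library lay above every untreated one, with a log2 fold change of 0.31 ± 0.14 (edgeR adjusted p = 0.0878, and 0.00123 with the clone as a block). DESeq2 and limma-voom called Cdk8 higher without a block. Without the untreated library of clone c, the highest of its group, the log2 fold change was 0.41 and the adjusted p 0.00116. The other 12 of the 13 genes with the most counts had log2 fold changes of 0.20 to 0.38, and the Cdk8 value lay in that range.

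The 3 paralogue pairs of the module were compared by the log2 ratio of their counts within each library. Med13l over Med13 was 0.19 ± 0.05 after 4OHT and 0.71 ± 0.10 untreated (SD, n = 3 each), a difference of -0.52 that was seen in 3 of 3 clones. The exact two-sided permutation test gave p = 0.1, the smallest that 3 against 3 libraries allow, and 0.3 after Benjamini-Hochberg adjustment over the 3 pairs. For Med12l over Med12 the ratio was 0.79 ± 0.14 after 4OHT and 1.03 ± 0.25 untreated, a difference of -0.24 (exact permutation p = 0.2, adjusted 0.3), and the difference was -0.12 without the untreated library of clone c. Cdk19 over Cdk8 was -7.88 ± 0.11 after 4OHT and -7.67 ± 0.40 untreated, a difference of -0.21 (exact permutation p = 0.4, adjusted 0.4). That difference ran from -0.44 without the untreated library of clone c to -0.097 without that of clone b, and was also -0.097 without that of clone a. The ratio rests on the unusually high Cdk8 count, so the reserve on that value holds for it too.

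In the head, Med22, a small subunit that pairs with Med11 in yeast, held 37.3, 40.7 and 51.4 CPM in clones a, b and c after 4OHT, against 25.1, 23.0 and 23.5 CPM untreated. The untreated libraries were close together and the 4OHT libraries spread upward, with means of 43.1 ± 7.35 CPM after 4OHT and 23.8 ± 1.09 CPM untreated (SD, n = 3 each). The log2 fold change was 0.85 ± 0.12 (edgeR adjusted p = 0.00018). Med22 lies in the tightly packed surfeit cluster, where its neighbours Surf6 (0.52) and Rpl7a (0.24) also rose. Med6, a contact between head and middle, averaged 88.7 ± 6.56 CPM after 4OHT and 70.9 ± 1.20 CPM untreated, a log2 fold change of 0.32 ± 0.07 (edgeR adjusted p = 0.00304). Without clone b in both groups the adjusted p of Med6 was 0.0587.

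The architectural head subunit Med17 averaged 50.9 ± 3.41 CPM after 4OHT and 57.6 ± 1.55 CPM untreated. Its 4OHT libraries all lay below the untreated ones, with a log2 fold change of -0.18 (edgeR adjusted p = 0.0634, and 0.024 with the clone as a block, but 0.169 in DESeq2 with that block). Med8 (0.09), Med11 (-0.03) and Med18 (-0.10) did not pass. Med20, the partner of Med18 in the head's movable jaw, had 0 counts in all 6 libraries, and a count of 0 allows up to 0.227 to 0.438 CPM in a library. Of its span, 99.9% lies inside Gm20517, a readthrough gene on the same strand that had 806 counts in all, and how shared reads were assigned is not given in the sources used here.

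In the middle module, Med9 was lower in every 4OHT library, with 53.2, 50.3 and 55.7 CPM in clones a, b and c after 4OHT, against 72.4, 70.1 and 72.6 CPM untreated. The means were 53.1 ± 2.73 CPM after 4OHT and 71.7 ± 1.39 CPM untreated (SD, n = 3 each). The log2 fold change was -0.44 ± 0.07 (edgeR adjusted p = 0.00036). Its partner Med4 went the other way, with 75.6 ± 3.89 CPM after 4OHT and 61.9 ± 3.0 CPM untreated and a log2 fold change of 0.29 ± 0.07 (edgeR adjusted p = 0.00599). Med10, which joins the middle module to Med14, averaged 41.8 ± 3.89 CPM after 4OHT and 29.5 ± 1.02 CPM untreated, a log2 fold change of 0.50 ± 0.09 (edgeR adjusted p = 0.000963). Gm26819, on the opposite strand and without a row of its own, covers 92.8% of the exonic length of Med10. Whether its reads add to the Med10 count was not tested.

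Med1, the subunit that nuclear receptors bind and that ERK phosphorylates in human cells, held 228, 224 and 204 CPM in clones a, b and c after 4OHT, against 184, 171 and 181 CPM untreated. All its 4OHT libraries were higher, by 0.29 ± 0.07 on the log2 scale (edgeR adjusted p = 0.00358), and the adjusted p was 0.0875 without clone b in both groups. Med26, which in human cells brings elongation factors to the polymerase, held 112, 116 and 144 CPM after 4OHT, against 123, 127 and 154 CPM untreated. Clone c was the highest in both groups, and within every clone the 4OHT library was lower. The log2 fold change was -0.12 ± 0.11 (edgeR adjusted p = 0.369, and 0.0237 with the clone as a block, but 0.189 in DESeq2 with that block). The hinge partners Med7 (0.19) and Med21 (-0.18) did not pass either, at adjusted p = 0.0909 and 0.105 in edgeR, and with the clone as a block at 0.017 and 0.0246. In DESeq2 with that block they stood at 0.136 and 0.205. Med19 (-0.21) and Med31 (-0.04) did not pass. Med19 overlaps Tmx2 and Zdhhc5, and Med21 overlaps Tm7sf3, all on the opposite strand.

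Med14, the scaffold, held 111, 111 and 90.0 CPM in clones a, b and c after 4OHT, against 62.8, 62.9 and 62.6 CPM untreated. The untreated libraries agreed to within 1 CPM, and the 4OHT library of clone c was the lowest of its group. The means were 104 ± 12.3 CPM after 4OHT and 62.8 ± 0.146 CPM untreated (SD, n = 3 each), a log2 fold change of 0.73 ± 0.09 (edgeR adjusted p = 5.38e-05).

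Among the other tail subunits, Med15, a docking site of SREBP and SMAD factors, held 107, 97.5 and 108 CPM in clones a, b and c after 4OHT, against 71.4, 71.2 and 69.6 CPM untreated. The groups were well apart, with a log2 fold change of 0.56 ± 0.07 (edgeR adjusted p = 5.41e-05). Med27, a metazoan subunit beside the head, held 126, 132 and 117 CPM after 4OHT, against 82.0, 88.0 and 76.9 CPM untreated, a log2 fold change of 0.60 ± 0.07 (edgeR adjusted p = 7.31e-05). Gm13402, on the opposite strand and without a row of its own, covers 26.2% of the Med27 span and 4.38% of its exonic length. Whether reads of Gm13402 add to the Med27 count was not tested. Med28 averaged 71.8 ± 3.34 CPM after 4OHT and 51.6 ± 1.90 CPM untreated, a log2 fold change of 0.48 ± 0.07 (edgeR adjusted p = 0.000221). Med16 rose by 0.21 ± 0.07 on the log2 scale (edgeR adjusted p = 0.0269), a call lost in 5 of the 6 fits without a single library.

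Med23, the subunit on which phosphorylated ELK1 docks in mouse embryonic stem cells, held 92.9, 99.5 and 86.7 CPM in clones a, b and c after 4OHT, against 99.2, 97.6 and 91.4 CPM untreated. The groups overlapped, and the log2 fold change was -0.05 ± 0.07 (edgeR adjusted p = 0.602). Med25 (-0.13), Med29 (0.19) and Med30 (-0.15) did not pass, although all 4OHT libraries of Med29 lay above the untreated ones. Without the untreated library of clone c, Med30 passed at -0.27 with an adjusted p of 0.0246.

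The direction of the smaller changes depended on how libraries were scaled. Scaling by library size alone shifted the log2 fold change of all tested genes by a median of -0.20, and scaling to the 13 genes with the most counts by -0.31. The median of the Mediator genes was -0.01 under library size and -0.12 under the 13 genes, as these scalings move every gene by nearly the same amount. By library size 9 members were higher and 10 lower, and all 9 were among the 14 called under TMM. Of all genes, 17.4% were higher and 41.0% lower by library size. With the 13 genes 5 members were higher and 9 lower, against 9.94% higher and 40.0% lower of all genes. Med24, Ccnc, Med22, Med13 and Med14 were higher and Med9 was lower in each of the 19 alternative fits run. Med24 was at 1.74, Ccnc at 0.70, Med22 at 0.54, Med14 at 0.43 and Med13 at 0.42 on the log2 scale with the 13 genes, and Med9 at -0.74. Med8, Med7, Med29, Med12 and Cdk19 turned from positive to negative under both of these scalings. Med1, Med4, Med16 and Med13l turned negative with the 13 genes.

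**Figure D4:**
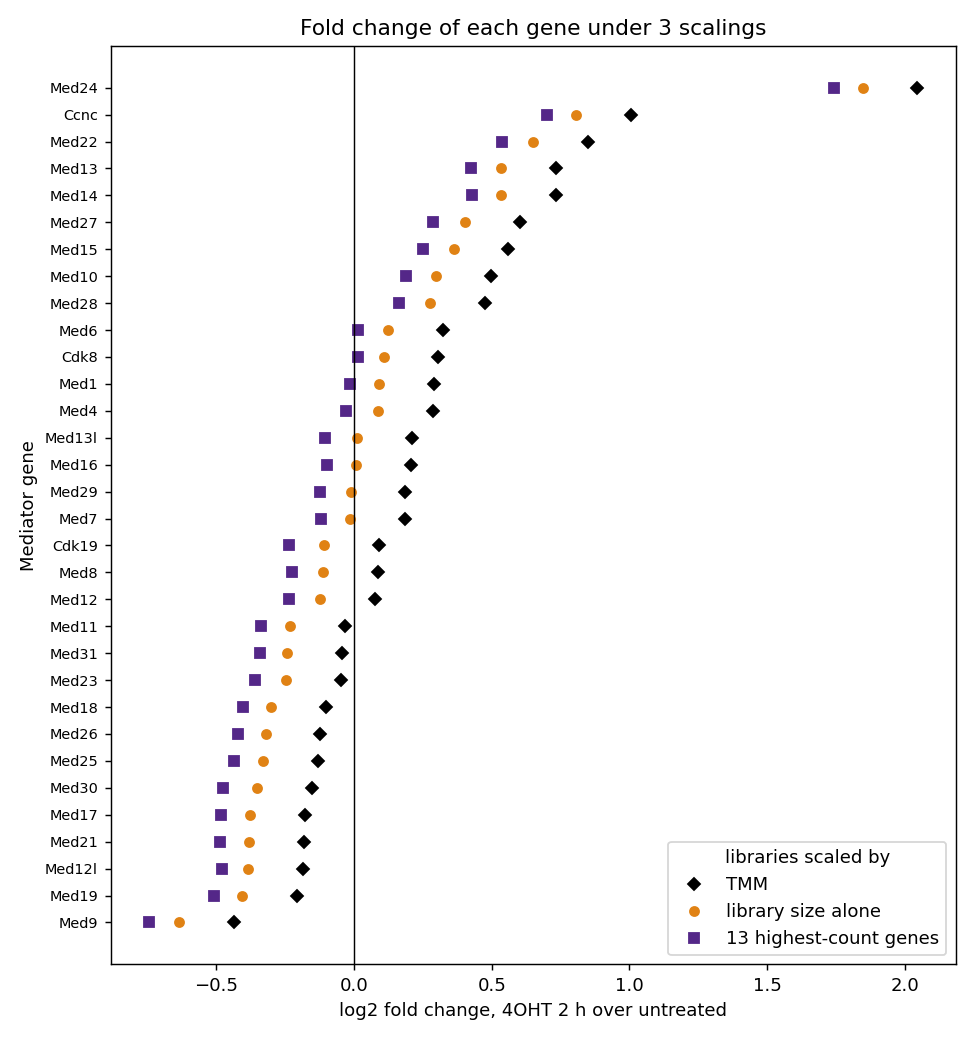
Log2 fold change (4OHT 2 h over untreated) of the 32 tested Mediator genes with libraries scaled by TMM, by library size alone and to the 13 genes with the most counts. Each other scaling moves all genes to the left by nearly the same distance, and Med24 to Cdk8 at the top and Med11 to Med9 at the bottom keep their sign. Med6 (0.016) and Cdk8 (0.014) lie near 0 with the 13 genes, and Cdk8 is itself the largest of the 13.

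Clones differed in 5 of 32 members beyond the treatment (edgeR, clone term added, adjusted p below 0.05), or 15.6%, against 12.6% of all genes tested. Med24 had the smallest of these p-values (edgeR adjusted p = 1.88e-05), with clone a lowest and clone c highest in both groups. Med26 was highest in clone c (edgeR adjusted p = 0.000666), and Med12l likewise (0.0204). Med13l (0.0107) and Cdk19 (0.0215) were lowest in clone c.

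**Figure D5:**
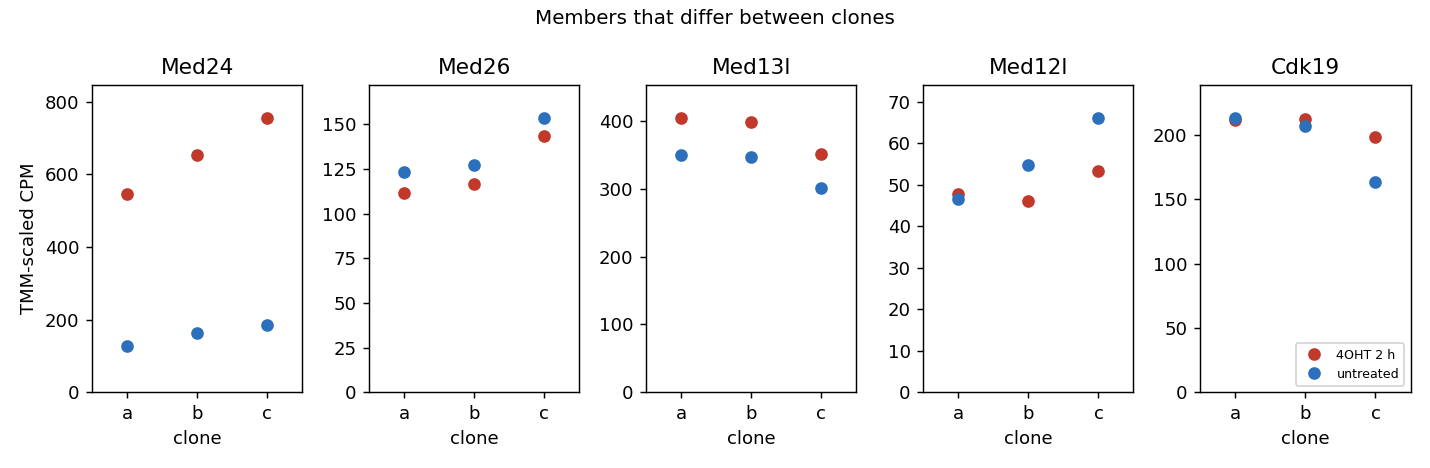
TMM-scaled CPM by clone of the 5 members that differed between clones, after 4OHT for 2 h (red) and untreated (blue). Med24 runs from 547 to 756 CPM after 4OHT and from 126 to 184 CPM untreated, with clone c on top in both groups.

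Genes that work with Mediator were described by the same fit. Of all genes tested, 28.5% were higher and 28.6% lower in it. The shares were 17.4% and 41.0% by library size, and 9.94% and 40.0% with scaling to the 13 genes. Of 10 cohesin and loader genes, 9 were higher and 0 lower in edgeR, and 0 were lower at an unadjusted p below 0.05 or in DESeq2 and limma-voom. Their median log2 fold change was 0.48. Rad21, the cleavable cohesin subunit, averaged 456 ± 30.8 CPM after 4OHT and 294 ± 6.41 CPM untreated (log2 fold change 0.63 ± 0.07). Smc1a (0.61 ± 0.06) and the loader Nipbl (0.63 ± 0.07) were like it, and only Mau2, the partner of Nipbl, did not pass. By library size 8 of the 10 were higher. Scaled to the 13 genes with the most counts, 0 passed in edgeR in either direction, adjusted or not, with a median of 0.16. Of 13 tested TAF subunits of TFIID, 9 were higher and 0 lower in edgeR (median 0.30), among them Taf1 at 107 ± 2.20 CPM after 4OHT and 70.0 ± 0.278 CPM untreated, and Taf5 (0.46 ± 0.08) and Taf4b (0.40 ± 0.07). No TAF was lower at an unadjusted p below 0.05 or in DESeq2 and limma-voom. By library size 4 TAF genes were higher, and with the 13 genes 0 in edgeR, 1 at an unadjusted p below 0.05, with a median of -0.02.

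Of 18 general transcription factor genes, 5 were higher (27.8%) and 1 lower (5.56%) in edgeR (median 0.18). The share higher was near the 28.5% of all genes tested. With the clone as a block 11 were higher in edgeR and 6 in DESeq2, and without a block 8 were higher without the 4OHT library of clone c and 3 without clone a. By library size 3 were higher and the median was -0.02, and with the 13 genes 0 were higher in edgeR, 1 at an unadjusted p below 0.05, with a median of -0.14. Gtf2b, which encodes TFIIB, averaged 77.4 ± 4.58 CPM after 4OHT and 49.1 ± 2.65 CPM untreated (log2 fold change 0.66 ± 0.07). Gtf2h1 (0.41 ± 0.07) and Ercc3 (0.40 ± 0.07) of TFIIH also rose, and Gtf2e1 of TFIIE fell (-0.25 ± 0.08). Of 21 tested activators with a described contact to a Mediator subunit, 7 were higher and 7 lower in edgeR (median 0.05). These shares, 33.3% each, were near those of all genes, 28.5% and 28.6%. By library size 7 were higher and 9 lower (median -0.15), and with the 13 genes 4 were higher and 8 lower (median -0.26). Esr1, the oestrogen receptor that binds Med1, averaged 108 ± 2.74 CPM after 4OHT and 35.9 ± 2.28 CPM untreated (log2 fold change 1.60 ± 0.07). The cells carry the ErT2 domain in their cassette, and whether reads of the cassette add to the Esr1 count was not tested. Of the factors that dock on Med15, Srebf2 rose to 298 ± 7.86 CPM after 4OHT, against 159 ± 5.90 CPM untreated (0.90 ± 0.06), and Smad3 fell to 11.5 ± 1.5 CPM after 4OHT, against 48.9 ± 2.45 CPM untreated (-2.10 ± 0.11). Of the other SREBP and SMAD genes listed, Smad4 rose (0.52), and Smad2 (0.15) and Srebf1 (-0.05) did not pass. Elk1, the factor that docks on Med23, did not pass (-0.25). Of its relatives, Elk4 rose (0.99) and Elk3 did not pass (-0.01).

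Promoter sequences were found for 28 of the 33 members, with 32 start sites in all, and 13 of the 14 members called higher were among them. Med8, Med23, Med24, Med30 and Cdk19 had no entry. The ETS motif CCGGAAG, on either strand, was in 9 of the 32 promoters (28.1%), against 8.86% of 32851 promoters of all genes, tested or not. Med15 has overlapping entries, chr16:17722898-17723197 and chr16:17722851-17723150, that hold the same matches, so its locus was counted more than once. The promoters with the ETS motif belonged to 8 members: Med4, Med6, Med10, Med14, Med15, Med17, Med18 and Med19. Of these 8 members 5 were called higher, against 13 of all 28 members with an entry. Med17 (-0.18), Med18 (-0.10) and Med19 (-0.21) had negative log2 fold changes. Ccnc, Med13, Med22 and Med9 had no match. Whether the motif goes with a rise was not tested. The AP-1 motif TGANTCA was in 6.25% of Mediator promoters, against 7.81% of all, and the CRE motif TGACGTCA in 3.13%, against 1.79%. The EGR motif GCGTGGGCG was in the Med14 promoter alone (3.13%, against 0.612%), the TATA motif TATAAA in 9.38%, against 13.6%, and the NRF1 motif and the CArG box in 0. Mediator promoters had a median GC content of 57.8%, against 52.7% for all promoters. A match describes these letters and is no evidence that a factor was bound.

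Mediator genes varied widely in length and level. Without Cdk8, the 31 tested members had a median of 3.05 CPM per kb of gene span after 4OHT and 2.95 untreated, and Med12l was the lowest in both. Across the 32 members the fold change was weakly related to gene span (Spearman's rho 0.23, against -0.03 across 13744 genes) and to level (0.41, against 0.26), as descriptions across genes that share the same libraries. Chromosome 11 holds 7 of the 33 members (21.2%, against 7.95% of tested genes), namely Med1, Med7, Med9, Med11, Med13, Med24 and Med31. In the fit without a clone term, the largest rise of the complex, the only fall and 3 genes that did not pass lie among them. Of the 66 nearest tested protein-coding neighbours of all members, 16 were higher (24.2%), 10 lower (15.2%) and 40 did not pass, with a median log2 fold change of 0.06. Both shares are under those of all genes, 28.5% higher and 28.6% lower. For the members called higher, 7 of 28 neighbours (25.0%) passed upward and 3 (10.7%) downward, and their median was 0.13.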

How the data were processed

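Nascent RNA labelled with ethynyl uridine was captured by click chemistry and sequenced from 3 clones, with and without 4OHT. STAR (an aligner), featureCounts (a read counter) and the build mm10 are named in the submitters' processing notes. The sources used here do not give versions, annotation, feature type, strand or the treatment of overlapping genes. What the authors deposited are whole-number read counts for each gene, with no normalization. Genes passing filterByExpr (minimum count 10, minimum total 15) numbered 13869, and were tested with edgeR 4.0.16 (R 4.3.3): TMM scaling, quasi-likelihood test, Benjamini-Hochberg adjustment over all of them, calls at adjusted p below 0.05, and no clone term. The SE is the log2 fold change divided by the square root of F. limma 3.58.1 and DESeq2 1.42.0 served as alternatives, and the fit was tested on simulated data with 200 changed genes. It recovered 49 of 99 genes changed by 0.5 on the log2 scale and 81 of 98 changed by 1. It called 9 of 13483 unchanged genes. The simulation had only 200 changed genes and no clone differences, whereas 57.1% of the tested genes were called in the data. Its recovery therefore need not be that of the reported fit. A gene that did not pass is not shown to be unchanged.

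The 33 members, their modules and the 4 lists of partner genes were chosen with earlier results of these data known. Every member is described, in full those called with a change of at least 0.5, the kinase module, Med1, Med14, Med15, Med23, Med24 and Med26, and in partner lists the 3 genes of smallest adjusted p. Other partner genes, neighbours and the genes around Med24 were named after their values were seen.

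Libraries of the same clone letter deviated together from their group means (correlations 0.282, 0.165 and 0.357, against -0.283 to 0.0682 between letters), and the labels give the letters as clones, so they pair the libraries. Nothing says that clones were cultured separately on different days, so a p-value reflects only how much these libraries vary, which may be technical. Positions come from GENCODE M21 (GRCm38, the assembly of mm10) and promoters from RefSeq (GRCm38.p6).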

Additional observations from a re-analysis of the deposited data

How the results depend on the processing

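Med24, Ccnc, Med22, Med13, Med14 and Med9 kept their call in all 19 alternative fits, and 94 of 607 pairs of member and setting had another verdict than reported. With the clone as a replicate block in edgeR, 16 members were higher and 5 lower, the added ones being Cdk8, Med7, Med12l, Med17, Med21 and Med26, and no other call among members changed. With the block in DESeq2, 14 were higher and 1 lower: Cdk8 was added, Med16 was lost, and Med7, Med12l, Med17, Med21 and Med26 did not pass. Without a block DESeq2 gave 13 higher and 1 lower, limma-voom 15 and 1. Of all genes, DESeq2 with or without the block called fewer than the 3953 higher and 3968 lower of the reported edgeR fit. Nearly the same numbers as in that fit were called by limma-voom. Members called higher numbered 9 by library size alone, 5 with scaling to the 13 genes with the most counts (chosen after seeing the data, as was leaving those genes out) and 7 with a change of at least 0.5. Members called lower numbered 10 by library size, 9 with the 13 genes, 2 with them left out, 0 in edgeR with a change of at least 0.5, and 1 to 4 when libraries were left out (2 with untreated clone a or c dropped, and 4 with clone c dropped from both groups). Of all genes, 2408 were higher and 5681 lower by library size, 1379 higher and 5546 lower with the 13 genes and 2188 higher with a change of at least 0.5. When libraries were left out, 2713 to 4159 of all genes were higher and 2708 to 4328 lower. Both numbers were highest with clone c dropped from both groups. Members that differed between clones numbered 2 at an adjusted p of 0.01 and 3 to 8 when libraries were left out (3 without the untreated library of clone b, 8 without the 4OHT library of clone c).

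The median log2 fold change of all members was -0.01 by library size and -0.12 with the 13 genes. For the head it was -0.17 by library size, -0.28 with the 13 genes, -0.0012 with them left out, and -0.027 to 0.075 without single libraries and -0.050 to 0.074 without single clones. For the middle it was -0.24, -0.34 with the 13 genes, 0.071 with 5 subunits moved to the head, -0.14 to 0.039 without single libraries and -0.11 to 0.021 without single clones. The scaffold stood at 0.53 and 0.43 and the tail at 0.0083 and -0.10 by library size and with the 13 genes. The kinase module stood at 0.0099, -0.11, 0.12 with the 13 genes left out, 0.13 to 0.28 without single libraries and 0.18 to 0.21 without single clones. Of single members, the log2 fold changes by library size and with the 13 genes were -0.11 and -0.22 for Med8, -0.014 and -0.12 for Med7, -0.012 and -0.12 for Med29, -0.12 and -0.23 for Med12, and -0.11 and -0.23 for Cdk19. With the 13 genes Med1 was at -0.013, Med4 at -0.028, Med16 at -0.10 and Med13l at -0.11. Without single libraries, Med11 ran from -0.11 to 0.057, Med31 from -0.14 to 0.039, Med23 from -0.095 to 0.0044 and Cdk19 from -0.034 to 0.16. Without single clones, Med11 ran from -0.14 to 0.085, Med31 from -0.15 to 0.021, Med12 from -0.021 to 0.17 and Cdk19 from -0.014 to 0.15. The 2 scalings take the largest genes or all counts as constant, which TMM does not; the cause of the other changes was not tested.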
